A study of Mus musculus with 1298 samples.

Results

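Bulk RNA-seq libraries made from embryonic mouse cells of the Pax7 lineage that had been sorted by flow cytometry and then grown in adipogenic differentiation medium (ADM) were compared between wells with high and with low *Thy1* counts. *Thy1* is a surface glycoprotein of mesenchymal and dermal cells that was also one of the markers of the sort. There were 6 such libraries among the 18 bulk libraries and the 1298 samples of the series. The column names keep the replicate number and the medium but not the sign of the *Thy1* gate, so within each replicate number the library with the higher *Thy1* level was called Thy1-high and the other Thy1-low, which gave 3 against 3. *Thy1* itself, at 0.992, 1.43 and 2.38 CPM (counts scaled to 1e6 per library) in the Thy1-low libraries and 32.3, 25.6 and 28.6 CPM in the Thy1-high libraries, chose the members and is left out of all results below. The members were thus selected on their own *Thy1* levels, and every difference between them is given as a description, with no p-value.

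The cells came from embryos of Pax7 CreER mice crossed to an R26-stop-EYFP reporter, in which tamoxifen given to the dam switches on YFP for good in cells that express *Pax7* at that time and in their descendants. Trunks of several embryos went into each digest, YFP-positive cells were gated first, and cells positive for *Pdgfra* were collected at E14.5 with and without *Thy1*. These were grown in ADM or in DMEM, a standard growth medium, supplemented with fetal serum. For cultured cells the replicates were wells, so their spread is that of culture and library making, and not that of separate embryos or litters. YFP transcripts were found in all 6 ADM libraries at 234.04 to 350.9 CPM.

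Brown adipocytes and dermal fibroblasts both arise from Pax7-expressing somitic mesoderm. Brown adipocytes store lipid in many small droplets and burn fatty acids in abundant mitochondria, and *Ucp1* lets protons leak through the inner mitochondrial membrane so that the energy is released as heat. *Pparg* and *Cebpa* drive adipocyte differentiation in general, while *Ebf2*, *Prdm16* and *Ppargc1a* are associated with the brown fate. Dermal fibroblasts make the collagens and proteoglycans of the skin and respond to Wnt signals from the epidermis. Adipogenic medium usually holds insulin, a glucocorticoid and other inducers.

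The ADM libraries held 3390851 to 11758559 counts, with 10078320 or more in each Thy1-low library and 7750079 or fewer in each Thy1-high library. Transcripts of the mitochondrial genome took 17.6% to 19.98% of the counts in the Thy1-low and 7.82% to 8.44% in the Thy1-high libraries, and the 10 most abundant genes took 23.8% to 25.9% and 15.97% to 17.4%. The scaling therefore matters. Levels below are CPM after scaling by edgeR's trimmed mean of M values (TMM), whose factors were 0.649 to 0.681 in the Thy1-low and 1.48 to 1.55 in the Thy1-high libraries. With this scaling the median log2 fold change (Thy1-high minus Thy1-low) over the 11007 genes that passed the filter on low counts was 0.04, and with library totals it was 1.23. Differences are therefore relative to the median gene and say nothing of the amount of RNA per cell.

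**Figure D1:**
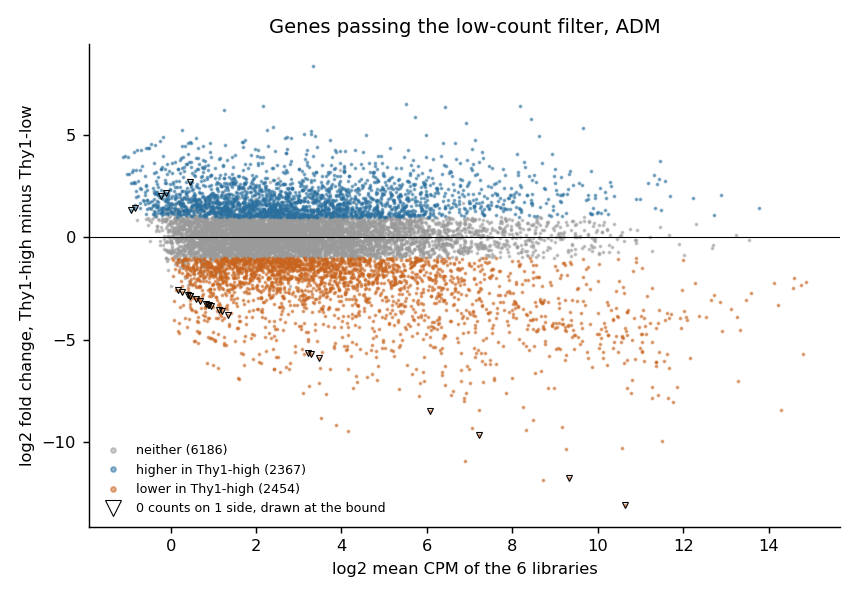
Each point is a gene that passed the low-count filter, with the log2 mean CPM of the 6 ADM libraries on the x axis and the log2 fold change (Thy1-high minus Thy1-low, TMM scaling) on the y axis. Orange genes (2454) were lower and blue genes (2367) higher in all 3 Thy1-high libraries by at least 2-fold, and the largest differences lie on the lower side. With library totals all points would lie further up, with 6121 genes higher and 1060 lower.

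A gene was counted as higher or lower when the 3 libraries of one side did not overlap the 3 of the other and the fold change was at least 2. By this rule 2367 genes (21.5% of those tested) were higher in the Thy1-high libraries and 2454 (22.3%) lower, 43.8% in all, while 68.1% did not overlap at any size of difference. With library totals these were 6121 and 1060. The sizes were uneven. At least 16-fold differences were found for 3.8% of the genes on the lower side and 0.745% (82 genes) on the higher side. The group labels used measured values of the same libraries, so nothing is read from these shares, and they serve as the background for the gene lists.

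The largest differences were in genes of brown fat. *Cidea*, which coats lipid droplets and is a marker of brown fat, had 3524, 3162 and 2864 CPM in the 3 Thy1-low libraries and no count in any Thy1-high library, which makes it at least 8512.5-fold lower when the floor is set at 3 counts per library. *Ucp1*, the uncoupling protein itself, had 1340.5, 1270.0 and 1242 CPM against no count, at least 3434-fold lower. Both genes therefore separated the libraries completely, and in bulk samples fewer cells of a type and less RNA per cell cannot be told apart. *Ffar4*, a receptor for long-chain fatty acids, had 304.6, 297.7 and 292.7 CPM against no count (at least 798-fold lower). *Plin5*, a droplet coat protein of oxidative tissues, had 129.2, 132.1 and 143.1 CPM against no count (at least 360.53-fold lower). *Kcnk3*, a background potassium channel, had 19.99, 25.7 and 21.002 CPM against no count (at least 59.5-fold lower). A count of 0 in the shallowest Thy1-high library allows up to 0.885 CPM before TMM scaling, and this covers counting error only.

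Mitochondrial and fatty acid genes of brown fat were near 0 in the Thy1-high libraries without being absent. *Cox7a1*, a subunit of cytochrome c oxidase found in muscle and brown fat, had 923, 841 and 775 CPM in the Thy1-low libraries and 0.0871, 0.272 and 0.392 CPM in the Thy1-high libraries, from 1, 3 and 2 reads (log2 fold change −11.82 ± 0.21, SE). *Cox8b*, another tissue-specific subunit of that enzyme, had 251.8, 258.1 and 208.02 CPM against 3 reads over the Thy1-high libraries, a ratio of 2187 with a conditional exact 95% interval of 748 to 10610. The fit gave *Cox8b* an SE of only 0.24 on the log2 scale. The ± values are thus too narrow for genes with few reads on 1 side, *Cox7a1* among them. *Otop1*, a proton channel, had 38.9, 32.2 and 36.004 CPM against 1 read, a ratio of 982 with an interval of 175.8 to 38854. *Chchd10*, a small protein of the mitochondrial intermembrane space, had 5470.45, 5734 and 6118 CPM against 6.27, 6.54 and 3.92 CPM (−9.95 ± 0.16). *Cpt1b*, which loads fatty acids onto carnitine for entry into mitochondria, was at 609, 593 and 703 CPM against 1.31, 0.908 and 0.196 CPM (−9.39 ± 0.23). *Thrsp*, a regulator of lipid synthesis, had 2776, 2964 and 3352 CPM against 2.27, 2.72 and 2.35 CPM (−10.26 ± 0.14), and *Rbp4*, a retinol carrier made by fat, had 1271, 1183 and 1243 CPM against 0.871, 0.727 and 1.57 CPM (−10.32 ± 0.17). The Thy1-low libraries lay close together for these genes, and no Thy1-high library came near them.

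The start regions of *Ucp1*, *Chchd10*, *Cox7a1* and *Crabp1* are shown so that their sequences can be set side by side. These genes were picked by hand and not by size. The windows are RefSeq's on GRCm38.p6, run from 250 bases before to 50 bases after a start, and are written 5′ to 3′ on the strand of the gene. Of the 38 genes named by size or taken from the study, 26 have a window. Capitals mark AGGTCA (the half-site of nuclear receptors such as the *Pparg* partner complexes), TATAAA and CCAAT on either strand.
Ucp1, chr8:83290098-83290397, plus strand: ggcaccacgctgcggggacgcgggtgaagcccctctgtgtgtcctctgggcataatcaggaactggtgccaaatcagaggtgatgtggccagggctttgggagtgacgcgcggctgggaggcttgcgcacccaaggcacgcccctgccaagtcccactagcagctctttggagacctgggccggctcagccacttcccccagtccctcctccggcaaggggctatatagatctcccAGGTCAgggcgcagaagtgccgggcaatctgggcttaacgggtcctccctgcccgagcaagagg
Chchd10, chr10:75932880-75933179, plus strand: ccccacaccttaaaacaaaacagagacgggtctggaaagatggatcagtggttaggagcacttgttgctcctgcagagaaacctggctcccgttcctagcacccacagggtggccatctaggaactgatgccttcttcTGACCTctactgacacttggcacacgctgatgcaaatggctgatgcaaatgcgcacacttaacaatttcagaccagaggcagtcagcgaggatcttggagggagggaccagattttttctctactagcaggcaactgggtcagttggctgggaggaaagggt
Cox7a1, chr7:30183921-30184220, plus strand: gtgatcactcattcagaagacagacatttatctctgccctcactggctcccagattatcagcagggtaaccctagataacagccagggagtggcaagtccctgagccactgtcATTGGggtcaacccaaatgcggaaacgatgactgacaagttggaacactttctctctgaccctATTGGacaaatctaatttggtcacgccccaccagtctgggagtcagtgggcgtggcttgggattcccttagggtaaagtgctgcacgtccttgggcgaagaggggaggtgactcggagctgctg
Crabp1, chr9:54764498-54764797, plus strand: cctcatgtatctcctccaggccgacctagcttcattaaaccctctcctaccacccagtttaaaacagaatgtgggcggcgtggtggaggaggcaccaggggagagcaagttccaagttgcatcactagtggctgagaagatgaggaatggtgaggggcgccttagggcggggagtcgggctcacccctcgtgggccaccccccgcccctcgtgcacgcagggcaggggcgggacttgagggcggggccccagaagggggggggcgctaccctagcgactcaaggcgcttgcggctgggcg
The windows of *Ucp1* and *Chchd10* each hold 1 AGGTCA, on the strand of the gene in *Ucp1* and on the opposite strand in *Chchd10*. That of *Cox7a1* holds 2 CCAAT, both on the opposite strand, and that of *Crabp1*, a gene higher in the Thy1-high libraries, holds none of the 3 motifs. The window of *Egfl6*, also higher in the Thy1-high libraries and not printed here, holds a CCAAT on the opposite strand. AGGTCA is found in 16.3% of all 32851 windows, TATAAA in 13.6% and CCAAT in 37.4%. Among the windows of the thermogenic genes described next AGGTCA is found in 4 of 25, and among those of the lipid droplet and adipokine genes in 8 of 33. These are matches of letters only. In GENCODE on GRCm38 *Ucp1* is a protein-coding gene at 8:83290352-83298452, *Cox7a1* at 7:30184144-30186078 and *Crabp1* at 9:54764748-54773110, all on the plus strand.

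Of 25 thermogenic genes on a list of brown fat markers 24 were in the table and 18 passed the filter. All of these but *Acot11* (0.92 ± 0.42) were lower in the Thy1-high libraries, 17 against 22.3% of all genes tested, and their median log2 fold change was −7.75, or −6.24 with genes at 0 set to their bound. The 6 that did not pass were *Dio2*, *Zic1*, *Lhx8*, *Slc27a2*, *Esrrg* and *Cited1*. *Ppargc1a*, a coactivator of mitochondrial genes, had 34.2, 30.96 and 36.6 CPM against 0.958, 0.272 and 1.37 CPM (−5.43 ± 0.28). *Prdm16*, a regulator of the brown fate, was low on both sides, with 1.98, 2.48 and 2.13 CPM against 0.436, 0.999 and 0.196 CPM (−1.85 ± 0.49), the smallest of the 17 differences. The summed level of the list was 8336 to 9124 CPM in the Thy1-low and 14.9 to 21.6 CPM in the Thy1-high libraries. Genes read almost only in the Thy1-low libraries pass the filter through those libraries, so such counts describe the members and support nothing further.

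**Figure D2:**
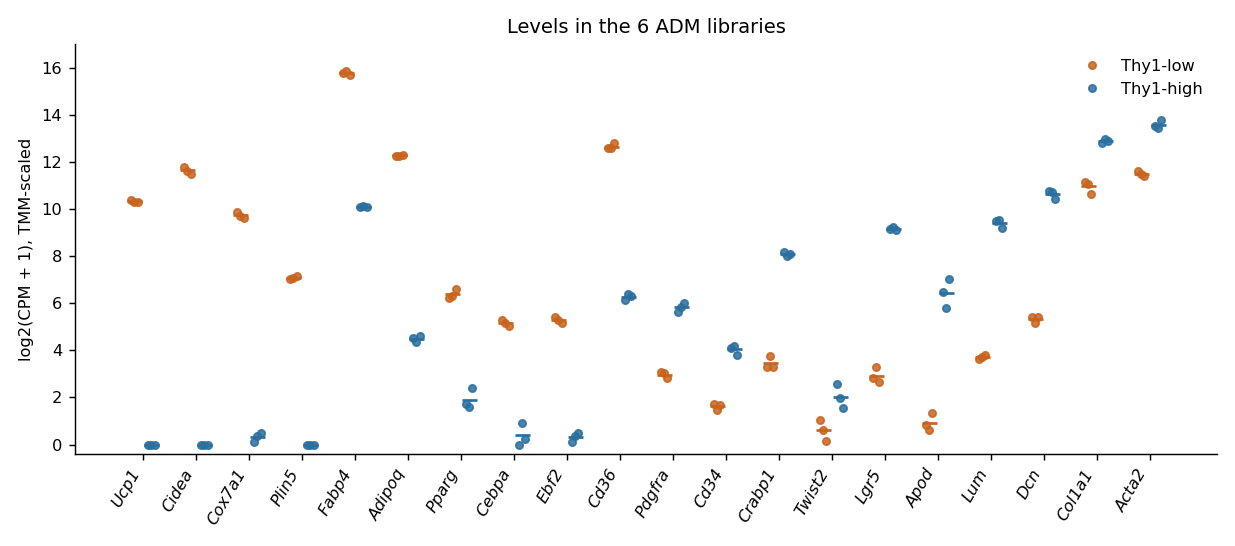
Levels of 20 genes in the 6 ADM libraries, as log2(CPM + 1) after TMM scaling (y axis), with 1 point per library and a bar at the mean of the 3 libraries of each side. *Ucp1*, *Cidea* and *Plin5* are at 0 in all 3 Thy1-high libraries (blue), *Fabp4* and *Cd36* are read on both sides at different levels, and the genes from *Pdgfra* to *Acta2* are higher in the Thy1-high libraries.

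Genes of fat cells in general differed as clearly but were not absent from the Thy1-high libraries. *Fabp4*, the fatty acid carrier of adipocytes, had 56265, 58996 and 52134 CPM in the Thy1-low and 1093, 1111 and 1088 CPM in the Thy1-high libraries (−5.67 ± 0.08). *Adipoq*, the adipokine adiponectin, had 4877, 4919 and 5006 CPM against 22.3, 19.3 and 23.5 CPM (−7.84 ± 0.11). *Cd36*, a fatty acid transporter, had 6105, 6134 and 7069 CPM against 68.9998, 83.6 and 77.2 CPM (−6.39 ± 0.11). The Thy1-high libraries were thus far below the Thy1-low libraries in all 3 genes while well above the floor of 3 counts. *Lpl*, the lipase that frees fatty acids from lipoproteins, differed less, with 8001, 8171 and 8054 CPM against 611, 548 and 486.7 CPM (−3.88 ± 0.10). *Plin1*, a droplet coat protein of fat cells, had 31.9, 47.9 and 47.3 CPM against 1.22, 0.908 and 0.588 CPM (−5.43 ± 0.25). All 26 of the 28 lipid droplet and adipokine genes that passed the filter were lower (median −5.82), against 22.3% of all genes tested. Their summed levels were 98896 to 103780 CPM in the Thy1-low and 3381 to 3476 CPM in the Thy1-high libraries. *Cav1*, which forms caveolae, was the smallest at −1.02 and changes sign with library totals (0.17). *Arxes1* and *Arxes2* are near-identical copies whose reads may have been split, so their separate values are uncertain.

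Fatty acid synthesis and breakdown lay on the same side, where 22.3% of all genes tested were lower. Of 23 lipogenic genes 22 passed and 19 were lower (median −5.34), led by *Thrsp* and by *Scd1*, the delta-9 desaturase, at 39302, 38915 and 41640.5 CPM against 119.3, 116.53 and 108.005 CPM (−8.44 ± 0.10). *Fasn*, fatty acid synthase, had 1371, 1529 and 1723 CPM against 48.4, 40.7 and 49.8 CPM (−5.06 ± 0.12). *Gpat4* (−0.05), *Elovl5* (0.52) and *Elovl6* (0.69) were not counted, the latter pair without overlap but under 2-fold. All 23 genes of fatty acid oxidation passed and 21 were lower (median −5.20). *Acadm*, the medium-chain dehydrogenase, had 3463, 3476 and 3748 CPM against 27.9, 28.9 and 28.2 CPM (−6.97 ± 0.10). The exceptions were *Cpt1a* (−0.26 ± 0.15), the carnitine transferase of most other tissues, and *Acsl5* (0.95 ± 0.18), an acyl-CoA synthetase. The Cpt1 genes therefore differed from each other, with *Cpt1b* read almost only in the Thy1-low libraries and *Cpt1a* at 22.4 and 18.7 CPM on average.

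All 29 genes of the respiratory chain and the citric acid cycle passed and all were lower in the Thy1-high libraries, against 22.3% of all genes tested. Their differences ran from −6.26 for *Idh3a*, an isocitrate dehydrogenase subunit, to −2.31 for *Atp5g1*, a subunit of the ATP synthase (median −4.42). Summed the 29 genes took 113760 to 115420 CPM in the Thy1-low and 5883 to 6297 CPM in the Thy1-high libraries. *Cs*, citrate synthase, had 3899, 3875 and 4070.2 CPM against 175.2, 149.3 and 132.3 CPM (−4.69 ± 0.11). *Atp5b*, the catalytic subunit of the ATP synthase, had 16039, 16761 and 16633 CPM against 1579, 1369 and 1442 CPM (−3.49 ± 0.08). The spread within each group of libraries was narrow beside the gap between them.

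The regulators of adipocyte fate were mixed. Of 23 on the list 17 passed, 8 were lower, 2 were higher and 7 were counted as neither, so that the median (−0.98) turned positive with library totals (0.20). Among all genes tested 21.5% were higher and 22.3% lower. The 2 higher members were thus no more frequent than among all genes, and nothing is read from their number. *Pparg*, the master regulator of adipocytes, had 73.9, 78.7 and 96.01 CPM in the Thy1-low and 2.27, 2.00 and 4.31 CPM in the Thy1-high libraries (−4.99 ± 0.21). *Cebpa*, its partner, had 38.6, 35.2 and 31.6 CPM against 0, 0.908 and 0.196 CPM (−6.41 ± 0.40). *Ebf2*, which marks brown preadipocytes, had 41.4, 38.1 and 35.004 CPM against 0.0871, 0.272 and 0.392 CPM (−7.35 ± 0.26). *Ppara*, a nuclear receptor that controls fatty acid oxidation, was at 46.7, 57.2 and 52.5 CPM against 0.610, 0.545 and 0.196 CPM (−6.65 ± 0.22). These 4 factors separated the libraries by a wide gap. *Klf5* (2.67 ± 0.44) and *Klf4* (1.45 ± 0.45), Krüppel-like factors of early adipogenesis, were higher in the Thy1-high libraries. *Stat5a* (−0.96), *Stat5b* (−0.45), *Rxra* (−0.63), *Zfp423* (−0.98) and *Ebf1* (0.50) were not counted, although *Stat5a*, *Zfp423* and *Ebf1* had no overlap between the groups. *Rgcc*, a cell cycle regulator that the study followed in this lineage, had 235.75, 274.4 and 301.4 CPM against 11.1, 10.1 and 12.2 CPM (−4.62 ± 0.13).

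**Figure D3:**
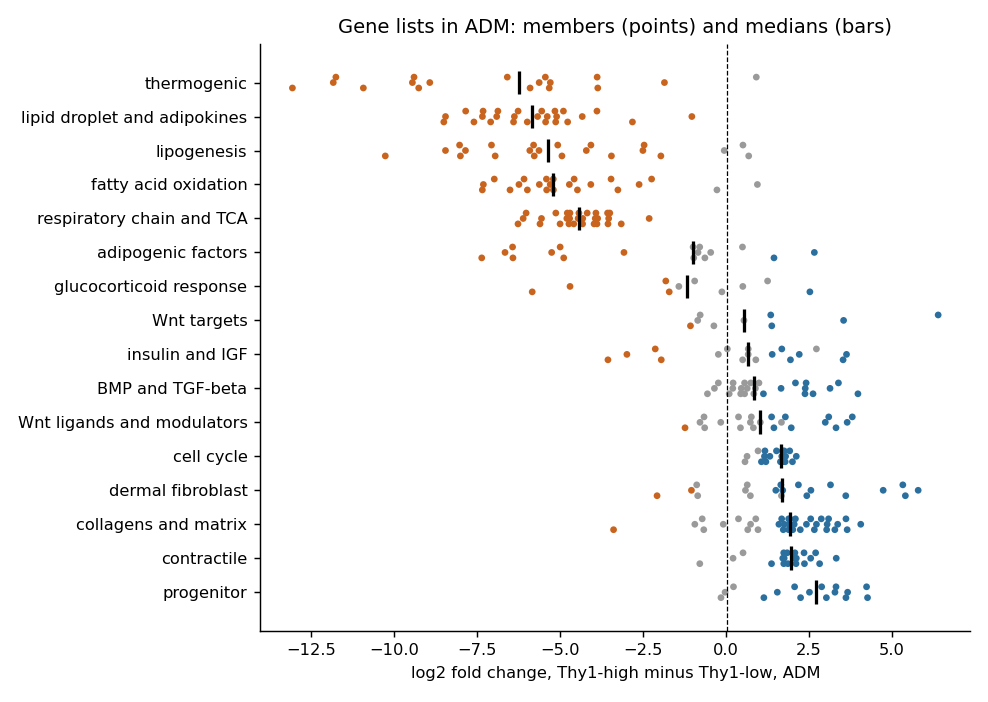
Log2 fold changes (Thy1-high minus Thy1-low, x axis) of the members of 16 gene lists that passed the filter in ADM, with orange for lower, blue for higher and grey for neither, a bar at each list's median and a dashed line at the median of all genes (0.04). Genes with no count on 1 side are drawn at their bound. The medians run from −6.24 for the thermogenic to 2.71 for the progenitor list, and those of the adipogenic factors and of the glucocorticoid response change sign with library totals.

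Several genes differed by a wide gap in the other direction. *Apod*, a lipid-binding secreted protein, had 0.763, 0.550 and 1.5002 CPM in the Thy1-low and 87.03, 53.9 and 130.7 CPM in the Thy1-high libraries (6.52 ± 0.41). *Lgr5*, a receptor for R-spondins that amplifies Wnt signals, had 6.10, 8.94 and 5.25 CPM against 571, 595 and 549 CPM (6.40 ± 0.16). *Smoc2*, a secreted calcium-binding matrix protein, had 1.98, 1.93 and 2.25 CPM against 168.49, 191.4 and 146.8 CPM (6.35 ± 0.16). The Thy1-high libraries were close to each other for *Lgr5* and *Smoc2* and more spread for *Apod*. *Itgbl1*, a secreted protein related to integrins, had 1.98, 2.34 and 1.00 CPM against 106.03, 114.9 and 92.9 CPM (5.90 ± 0.20). *Lum* and *Dcn*, small proteoglycans that bind collagen fibrils, had 11.4 to 13.0 and 34.7 to 41.7 CPM against 587 to 732 and 1366 to 1715 CPM (5.80 ± 0.13 and 5.34 ± 0.13). *Egfl6*, an EGF-like matrix protein, had 4.13 to 5.34 CPM against 228.2 to 243.9 CPM (5.60 ± 0.13). *Ctsk*, a collagen-degrading protease, and *Cxcl14*, a chemokine, were both 5.01 higher on the log2 scale (SE 0.15 and 0.32). *Mfap4*, a microfibril protein, was 4.96 ± 0.15 higher and *Ifitm1*, an interferon-induced membrane protein, 4.94 ± 0.29 higher. *Mup20*, with 20.3, 22.3 and 17.8 CPM in the Thy1-high libraries and a single read in the Thy1-low libraries, belongs to a family of near-identical genes (Thy1-low to Thy1-high ratio 0.00222, conditional exact 95% interval 5.6e-05 to 0.0124), and its counts cannot be assigned with certainty.

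Of 29 genes of dermal fibroblasts 20 passed, 12 were higher (21.5% of all genes were) and 2 were lower (median 1.70). *Crabp1*, which binds retinoic acid inside cells, had 8.85, 12.7 and 8.75 CPM in the Thy1-low and 287.2, 253.4 and 271.3 CPM in the Thy1-high libraries (4.74 ± 0.15). *Twist2*, a transcription factor of the dermis, was low, with 1.07, 0.550 and 0.125 CPM against 4.88, 2.91 and 1.96 CPM (2.57 ± 0.57). *Mef2c* was higher by 1.72 ± 0.22, and *Robo2*, a guidance receptor, by 5.41 ± 0.44. *Lef1*, a transcription factor that acts with β-catenin, had 2.44, 2.61 and 0 CPM against 1.31, 0.817 and 0.392 CPM, and the groups overlapped (−0.84 ± 0.80). *Trps1* (−2.07 ± 0.51) was lower, and *Lrig1* (−1.03) was lower with TMM scaling but changed sign with library totals. *Wnt5a*, a non-canonical Wnt ligand, had 14.6, 12.1 and 14.1 CPM against 26.7, 22.7 and 18.2 CPM, with no overlap but under 2-fold (0.74 ± 0.16).

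Collagens and other matrix genes were mostly higher. Of 37, 35 passed, 25 were higher and 1 was lower (median 1.94), and summed they took 49725 to 52299 CPM in the Thy1-high and 11894 to 14467 CPM in the Thy1-low libraries. *Col1a1*, the main chain of type I collagen, had 2291, 2155 and 1603 CPM against 7028, 8022 and 7651 CPM (1.91 ± 0.12), and *Col3a1*, type III collagen, had 722, 696 and 579 CPM against 5349, 4645 and 4688 CPM (2.88 ± 0.10). *Fbln5*, which assembles elastic fibres, differed more (4.07 ± 0.12). The basement membrane collagens did not follow, with *Col4a1* (−0.71) and *Col4a2* (−0.93) under 2-fold and *Col15a1* lower at 8.85 to 12.0 against 0.727 to 1.76 CPM (−3.38 ± 0.31). Of 20 contractile genes that passed, 17 were higher and none was lower (median 1.97). Over all genes tested 21.5% were higher and 22.3% lower. *Acta2*, smooth muscle actin, had 3099, 2866 and 2734 CPM against 11781, 11099.6 and 13999.5 CPM (2.08 ± 0.10).

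Progenitor genes were higher as well, 13 of the 16 that passed of 19 (median 2.71), against 21.5% of all genes. *Pdgfra*, the receptor for PDGF that all sorted cells were selected for, had 7.48, 7.15 and 6.00 CPM in the Thy1-low and 49.05, 56.7 and 63.5 CPM in the Thy1-high libraries (3.03 ± 0.15). *Cd34*, a surface sialomucin, had 2.29, 1.79 and 2.25 CPM against 16.3, 17.4 and 12.9 CPM (2.89 ± 0.22), and *Ly6a*, or Sca-1, had 20.3, 28.3 and 16.6 CPM against 281.6, 253.49 and 296.8 CPM (3.67 ± 0.17). *Osr1* (4.24 ± 0.21) and *Osr2* (4.27 ± 0.28), zinc-finger factors of connective tissue, had the largest differences of the list. *Pi16* (−0.14), *Sox9* (−0.02) and *Meox2* (0.23) overlapped between the groups. *Dlk1*, an inhibitor of adipogenesis, was at 110.9, 108.97 and 79.5 CPM against 253.52, 315.7 and 310 CPM (1.55 ± 0.14).

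Among 21 Wnt ligands, receptors and modulators that passed of 34, 9 were higher and 1, the receptor *Fzd4* (−1.23), was lower, and library totals made that 17 and 0. For this and the next lists the shares over all genes tested were 21.5% higher and 22.3% lower. With library totals 6121 and 1060 of all 11007 genes were higher and lower, so the larger counts follow a shift of all genes. The higher ones were the secretion factor *Wls* (3.00 ± 0.10), the ligands *Wnt16* (3.103) and *Wnt9a* (1.45), the receptors *Ror1* (1.38), *Fzd2* (1.97) and *Ror2*, with 3 reads in the Thy1-low libraries (Thy1-low to Thy1-high ratio 0.0702, interval 0.0140 to 0.217), and the Dickkopf proteins *Dkk1* (3.81 ± 0.47), *Dkk2* (1.797) and *Dkk3* (3.32), of which *Dkk1* and *Dkk2* bind Wnt coreceptors. Of 9 genes among targets and mediators of Wnt that passed of 15, *Lgr5*, *Lgr4* (1.36), *Nkd1* (1.39) and *Nkd2* (3.55 ± 0.48) were higher. *Ctnnb1*, β-catenin itself, was at −1.06 with TMM scaling and 0.13 with library totals, so that its direction rests on the scaling. *Axin2*, the usual readout of Wnt signalling, did not pass the filter. Of 25 BMP and TGF-beta genes 10 were higher and none was lower (median 0.85), or 20 and 0 with library totals, among them *Tgfbi* (3.98 ± 0.27) and *Ltbp1* (3.14). Of the 17 insulin and IGF genes that passed 6 were higher and 4 lower, or 12 and 2 with library totals. Lower members were thus about as frequent as among all genes (22.3%), and nothing is read from their number. *Insr*, the insulin receptor, had 13.1, 15.96 and 17.1 CPM in the Thy1-low and 3.22, 3.36 and 4.31 CPM in the Thy1-high libraries (−2.12 ± 0.20), and *Irs2* (−3.55 ± 0.43), *Foxo1* (−2.98 ± 0.31) and *Akt2* (−1.94), which act downstream of it, were also lower. *Irs1* (1.69), *Igf1* (1.40), *Grb10* (1.95) and the binding proteins *Igfbp3* (2.22), *Igfbp5* (3.54 ± 0.14) and *Igfbp6* (3.64 ± 0.17) were higher.

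Proliferation genes were higher in the Thy1-high libraries, 17 of 20 (median 1.67), against 21.5% of all genes. *Cdk1*, the mitotic kinase, had 17.4, 18.6 and 18.1 CPM against 53.1, 54.6 and 48.2 CPM (1.53 ± 0.11), and *Mcm2*, of the replicative helicase, 6.26, 4.82 and 6.38 CPM against 25.5, 24.98 and 25.9 CPM (2.13 ± 0.16). *Mki67* (0.58), *Tyms* (0.64) and *Birc5* (0.97) had no overlap but lay under 2-fold, and none of the 20 was lower. Of 10 glucocorticoid-response genes that passed of 13, 4 were lower (22.3% of all genes were) and *Sgk1* (2.54 ± 0.26), a kinase, was higher. The other 5, *Fkbp5* (−1.41), *Saa3* (−0.94), *Per1* (−0.12), *Tsc22d3* (0.51) and *Errfi1* (1.26), were counted as neither. The metallothioneins, which bind metals and are induced by glucocorticoids, stood out, with *Mt1* at 2156, 2107 and 1742 CPM against 88.8, 82.2 and 59.98 CPM (−4.69 ± 0.15) and *Mt2* at 303.96, 302.3 and 215.52 CPM against 5.84, 4.27 and 3.92 CPM (−5.83 ± 0.19). The list's median of −1.17 was 0.02 with library totals, with 4 members then higher and 2 lower. The direction of the list as a whole thus rests on the scaling.

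The interferon genes differed among the Thy1-high libraries themselves. *Bst2*, an antiviral membrane protein, had 21.8, 5.09 and 58.8 CPM in Thy1-high replicates 1 to 3 and 1.83, 5.64 and 0.875 CPM in the Thy1-low replicates, and *Ifit1* had 7.67, 0.727 and 21.95 CPM against 0.610, 2.201 and 0.875 CPM. Thy1-high replicate 2 lay within the Thy1-low range for both, while replicates 1 and 3 were above it. Of the 5 members of 10 that passed, *Ifit3* (2.66 ± 0.48) was higher and none was lower. This is close to the share of all genes that were higher (21.5%).

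Markers of other cell types were few. Of 19 skeletal muscle genes 6 passed, and the muscle regulators *Pax7*, *Myf5*, *Myod1* and *Myog* did not. *Acta1*, skeletal actin, was read at 187.4 to 210.02 CPM in the Thy1-low and 993 to 1448 CPM in the Thy1-high libraries (2.58 ± 0.13), and *Tnnt2*, cardiac troponin T, at 0.125 to 0.275 and 2.70 to 6.86 CPM (4.49 ± 0.59), while *Des* overlapped (−0.22). The summed muscle list was at 231.2 to 251.9 and 1026 to 1509 CPM, and 3 of its genes, *Pax7*, *Myf5* and *Mymx*, had no count in any ADM library. Pericyte markers summed to 27.9 to 32.2 and 70.3 to 86.9 CPM, with *Pdgfrb* 2.79 ± 0.17 higher, *Notch3* lower (−1.26) and *Rgs5* below the filter. Of 12 neural markers only *Tubb3* and *Stmn2* passed (9.49 to 14.2 and 75.1 to 92.5 CPM summed), and *Sox2*, *Sox10* and *Robo3* were among those with no count. *Pecam1* was the only 1 of 8 endothelial markers to pass, at 25.3 to 33.02 and 6.36 to 12.9 CPM, with *Cdh5* and *Kdr* below the filter and *Emcn*, *Cldn5* and *Erg* at 0. Of 10 immune markers only *Lyz2* passed, at no more than 1.57 CPM in any library, and 6, among them *Adgre1*, *C1qa* and *Tyrobp*, had no count. *Krt10* was the single epidermal marker to pass, at 1.05 to 2.75 CPM, while *Krt5*, *Krt14*, *Krt15* and *Cdh1* had no count, and *Col2a1*, a cartilage collagen, was lower in the Thy1-high libraries (1.39 to 3.36 against 14.997 to 32.004 CPM). The part of such cells in the results was not tested.

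The same ordering by *Thy1* within replicate number was applied to the 6 libraries grown in DMEM (54.7 to 64.8 against 5.97 to 9.03 CPM of *Thy1*) and to the 4 libraries of freshly sorted cells positive for *Pdgfra* (86.2 and 109.3 against 4.77 and 5.87 CPM), which are technical duplicates. All 4 are E16.5 by their labels, but the study's text names an earlier day for the cells without Thy1 in one place, and if that holds, day and *Thy1* order cannot be told apart in this set. Each set was scaled by itself, so levels are not compared across sets, and these values too are descriptions. In DMEM 729 genes were higher (5.54%) and 1212 lower (9.21%), and in the freshly sorted set, with 2 against 2, 1289 (7.68%) and 1658 (9.88%). Of the genes tested in both media, those higher in both made up 18.7% of the genes higher in ADM and 80% of those higher in DMEM, while 36 went opposite ways. Those lower in both made up 33.9% and 84.9%, with 12 opposite. With the freshly sorted libraries the shared genes made up 11.3% of the ADM and 43.9% of the freshly sorted genes on the higher side and 8.49% and 30.3% on the lower side, while 9.41% and 3.16% of the ADM genes went the opposite way.

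The lipid droplet and adipokine genes were lower in the Thy1-high libraries of all 3 sets, with 26 of 26 in ADM, 26 of 27 in DMEM (median −5.13, or −4.87 with genes at 0 set to their bound) and 15 of 27 in the freshly sorted set (median −1.18, with 1 higher). In DMEM *Fabp4* averaged 7164 CPM in the Thy1-low and 0.208 CPM in the Thy1-high libraries (−15.03 ± 0.36), and freshly sorted it averaged 179.3 and 31.7 CPM (−2.50 ± 0.16). The Thy1-low DMEM wells were uneven, so averages over them hide a spread. Mitochondrial transcripts took 14.9%, 9.6% and 11.9% of their counts, against 7.25% to 7.73% in the Thy1-high DMEM wells. The thermogenic list was lower for 15 of 19 in DMEM (median −3.33) and 12 of 22 freshly sorted (median −1.10). *Ucp1* was too low in DMEM to pass the filter, with 6, 10 and 2 reads in the Thy1-low and none in the Thy1-high libraries. The respiratory chain list was lower throughout in both media, 29 of 29 each, with a median of −1.81 in DMEM, and in the freshly sorted libraries none was lower and 1 was higher (median −0.02). Among all genes tested 22.3% were lower in ADM, 9.21% in DMEM and 9.88% freshly sorted.

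On the other side the sets differed by gene. *Crabp1* was higher in all 3 (3.48 ± 0.16 in DMEM, 3.41 ± 0.17 freshly sorted), as were *Apod* (2.89 and 1.34), *Cxcl14* (4.48 and 2.84) and *Egfl6* (1.29 and 1.85). *Lgr5* was higher in DMEM (5.16 ± 0.17) but at −0.11 ± 0.18 freshly sorted. *Smoc2* and *Mfap4* were higher in DMEM (2.16 and 1.17) and lower in the freshly sorted Thy1-high libraries (−1.72 ± 0.14 and −1.37 ± 0.16). *Dcn* was 0.15 ± 0.18 and *Lum* 0.69 ± 0.19 in DMEM, neither counted as higher. *Lef1*, which overlapped in ADM, averaged 82.5 against 3.77 CPM in the freshly sorted libraries (4.47 ± 0.28). The cell cycle list had no member counted in DMEM (median −0.28) and 1 in the freshly sorted set (median 0.74). The collagen and matrix list had 9 higher and 7 lower members in DMEM (median 0.53), and 2 and 8 freshly sorted (median −0.39). Among all genes tested 5.54% were higher and 9.21% lower in DMEM, and 7.68% and 9.88% freshly sorted. The 2 higher matrix members and the 1 cell cycle member of the freshly sorted set were near that share, and nothing is read from them.

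**Figure D4:**
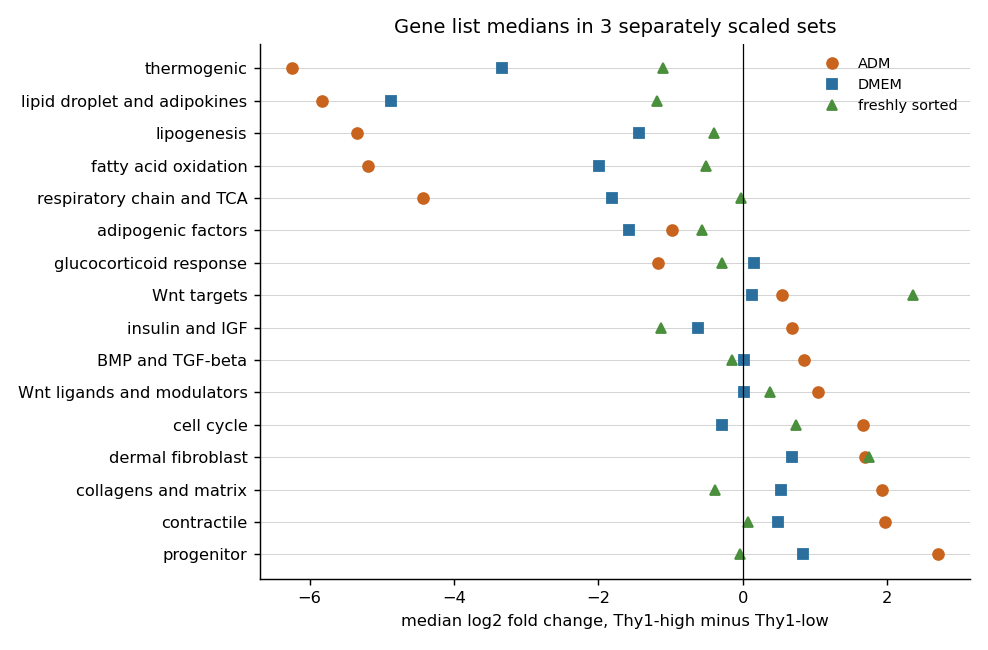
Median log2 fold change (Thy1-high minus Thy1-low, x axis) of each gene list in the ADM, DMEM and freshly sorted libraries (the last E16.5 by their labels), each set filtered and TMM-scaled by itself, with genes at 0 on 1 side set to their bound. The lipid droplet, lipogenic, thermogenic and mitochondrial lists lie far to the left in ADM and less so in DMEM, with the freshly sorted medians between −1.18 and −0.02. In ADM the adipogenic factor and glucocorticoid medians change sign with library totals.

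The medium was compared within each *Thy1* order, with ADM against DMEM, 3 against 3, in a single edgeR fit of the 4 groups. This asks what the adipogenic medium changed in cells of either kind, and the ordering by *Thy1* does not use this contrast. The p-values measure the spread between wells only, and the Thy1-low DMEM wells were uneven, as given above. The DMEM libraries were deeper, with 19480903 to 35332908 counts against 3390851 to 11758559 in ADM. Unscaled reads are therefore not comparable between media. Within the Thy1-high libraries 732 of 12968 genes were higher in ADM (5.64%) and 739 lower (5.7%) by edgeR's quasi-likelihood test at an adjusted p under 0.05. These counts rest in part on single replicate numbers, since without replicate 2 they came to 1.29% and 1.12% of the genes tested and without replicate 1 to 2.53% and 3.38%. Over both orders together, 6 libraries against 6, the shares were 2.75% higher and 2.94% lower by edgeR, but 0% in both directions without replicate 2 or 3, so nothing is drawn from them. Within the Thy1-low libraries 3298 were higher (25.4%) and 3844 lower (29.6%). With library totals those became 1173 and 8541 and the median moved from −0.10 to −1.12, while in the Thy1-high libraries it moved from 0.03 to 0.04. Whether the effects differed between the orders was not tested.

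In the Thy1-high libraries ADM raised genes of fat cells, some of them from near 0. *Fabp4* had 3, 5 and 7 reads in the DMEM libraries, and in ADM rose by 12.84 ± 0.28 on the log2 scale (edgeR adjusted p = 2.5e-14). *Adipoq*, with 1, 1 and 4 reads in DMEM, rose by 8.42 ± 0.37 (adjusted p = 2.3e-10), and *Cd36* by 8.40 ± 0.35 (adjusted p = 1.5e-10). *Lpl* rose by 2.79 ± 0.17 (adjusted p = 1.7e-08). These 4 held without any one replicate number. *Pparg* rose by 1.59 ± 0.40 (adjusted p = 0.015), which was lost without replicate 3 (0.080). Of 27 lipid droplet and adipokine genes tested 19 rose and none fell (17, 12 and 18 rose without replicates 1, 2 and 3, and 1 fell without replicate 2), and of 23 fatty acid oxidation genes 14 rose (11, 4 and 12). Of 21 thermogenic genes *Cpt1b*, *Elovl3* and *Slc36a2* rose and *Lhx8* fell, and only 2 or 3 rose and none fell without any one replicate number. Among all genes tested 5.64% rose and 5.7% fell. *Ucp1*, *Cidea*, *Ffar4* and *Plin5* had no count in any Thy1-high library of either medium. *Cox7a1* had 1, 3 and 2 reads in ADM and 0, 9 and 2 in the deeper DMEM libraries (log2 fold change 1.02 after scaling, edgeR adjusted p = 0.72).

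The fibroblast genes of the Thy1-high libraries mostly did not pass in this comparison. Of 25 dermal fibroblast genes tested 4 fell and 1 rose, while 5.7% of all genes fell and 5.64% rose. Without replicate 2 or 3 these became 2 and 0. *Dcn* (−0.18 ± 0.15, edgeR adjusted p = 0.52) and *Lum* (−0.40 ± 0.16, 0.13) did not pass. Nor did *Pdgfra* (−0.12 ± 0.16, 0.71) and *Ctsk* (−0.09 ± 0.12, 0.73), which are not on that list. *Crabp1* fell by 1.93 ± 0.14 (adjusted p = 2e-07), *Twist2* fell by 2.57 ± 0.38 (adjusted p = 0.0004) and *Cxcl14* fell by 1.15 ± 0.18 (adjusted p = 0.00074). *Wnt5a* was lower in ADM as well, at −0.60 (edgeR adjusted p = 0.012). Of 37 collagen and matrix genes 13 fell and 3 rose, which without replicate 2 became 3 and 2. *Col1a1* fell by 0.58 and *Col3a1* fell by 0.74, while *Fmod*, a collagen-binding proteoglycan, rose by 1.82. *Mup20* rose by 3.33 ± 0.23 (adjusted p = 7.9e-08), with the limit on its counts given above.

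In the Thy1-low libraries the thermogenic genes rose, 16 of 21 with 2 that fell (16 and 4 with library totals). Among all genes tested 25.4% rose and 29.6% fell, or 9.05% and 65.9% with library totals. *Ucp1*, with 6, 10 and 2 reads in DMEM, rose by 12.83 ± 0.31 (adjusted p = 3.7e-12), *Cidea* by 8.52 ± 0.37 (adjusted p = 5.2e-10) and *Cox7a1* by 5.74 ± 0.35 (adjusted p = 5.4e-10). *Fabp4*, already high in DMEM, rose by 3.44 ± 0.17 (adjusted p = 3.5e-11) and *Adipoq* by 2.51 ± 0.19 (adjusted p = 7.7e-09). *Ebf2* was at 0.03 ± 0.14 (adjusted p = 0.86), and *Pparg* rose by 0.57 ± 0.22 (adjusted p = 0.040), which was lost without replicate 2 or 3 (0.14 and 0.32) and is −0.45 with library totals. All 29 respiratory chain and citric acid cycle genes rose (28 with library totals), as did 22 of 23 fatty acid oxidation genes. *Mt1* rose by 4.28 ± 0.16 (adjusted p = 2.5e-12) and *Mt2* by 6.13 ± 0.19 (adjusted p = 5e-13).

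Matrix and progenitor genes fell in the same libraries, where 29.6% of all genes tested fell, and 65.9% with library totals. The larger counts with library totals follow a shift of all genes. *Lum* fell by 5.57 ± 0.21 (adjusted p = 1.9e-12), *Dcn* fell by 5.43 ± 0.19 (adjusted p = 1.2e-12), *Smoc2* fell by 4.91 ± 0.24 (adjusted p = 4.2e-11) and *Pdgfra* fell by 2.38 ± 0.19 (adjusted p = 1.8e-08). Of 37 collagen and matrix genes 29 fell and 2, *Col15a1* and *Col6a3*, rose (with library totals 35 fell and none rose). All 20 cell cycle genes fell, with either scaling, *Mcm2* by 2.15 ± 0.14 (adjusted p = 8.6e-10), and 15 of 18 progenitor genes fell and none rose. *Lgr5* fell by 0.72 ± 0.18 (adjusted p = 0.003), which was lost without replicate 3 (0.10).

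**Figure D5:**
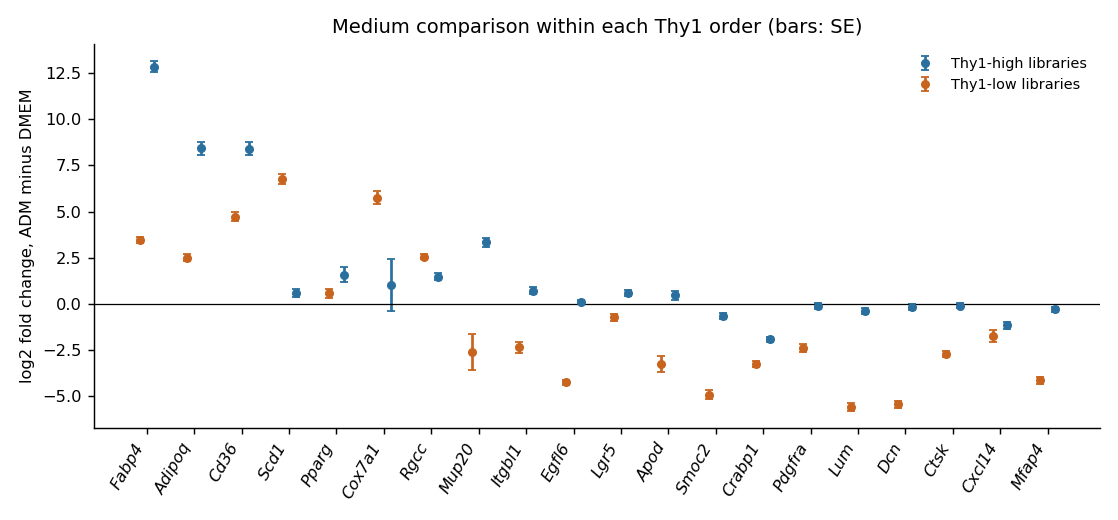
Log2 fold change between media (ADM minus DMEM, y axis) of 20 genes, with SE bars, within the Thy1-high (blue) and the Thy1-low (orange) libraries, from 1 edgeR fit of 12 libraries with TMM scaling. *Fabp4*, *Adipoq* and *Cd36* are higher in ADM in both, while *Lum*, *Dcn* and *Ctsk* lie between −0.40 and −0.09 in the Thy1-high and between −5.57 and −2.70 in the Thy1-low libraries. With library totals the Thy1-low values lie lower, and *Pparg* is then at −0.45.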

How the data were processed

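The authors deposited whole-number read counts per gene for the bulk libraries (22938 genes, 18 libraries), unscaled. RNA of sorted or cultured cells was amplified by Smart-seq2 and sequenced; the tool that counted the bulk reads is not given in the sources used here. Counts were filtered with filterByExpr, scaled by TMM and fitted with edgeR 4.0.16 (quasi-likelihood) in R 4.3.3 within each set of libraries; DESeq2 1.42.0 gave an alternative. Errors, called SEs, are the size of the fitted log2 fold change over the square root of the quasi-likelihood F. They are too narrow where 1 side has few reads. The Thy1 order was set from the libraries' own Thy1 levels, so no p-value is given for it. ADM was compared with DMEM over all 12 cultured libraries and, a comparison chosen after seeing the data, within each Thy1 order, with Benjamini-Hochberg adjustment over all genes tested. The 24 gene lists, the members and the tests were chosen with earlier results of these data known. Genes were named by size (the 12 largest differences in each direction with a mean of at least 20 CPM on the higher side and no overlap, leaving out predicted genes, clones and pseudogenes), from the lists (defining members and those with the largest and smallest differences), and from the study. Members of lists that met neither limit, and markers at 0, were named after their values were seen. Replicate numbers did not pair the ADM libraries (correlations of deviations 0.0016, −0.0769 and −0.067). The scripts were tested on simulated data. A floor of 3 counts per library stands for 0, and intervals and floors cover counting error only. Figures were drawn in Python 3.11.15. The single-cell tables and the Cd36-sorted libraries were not used in any comparison.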

Additional observations from a re-analysis of the deposited data

Results flagged for a closer look

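Among 32 checks for a library standing apart from its group, 1 was past Dixon's limit, and chance gives about 1 in 20. Among the 6 DMEM libraries the lowest YFP level, 266.5 CPM in Thy1-low replicate 1, lay below the others, which were between 350.2 and 394.6 CPM (gap over range 0.653).

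In 4 of the named genes the 3 ADM libraries all lay above the 3 DMEM libraries within the Thy1-high order and all below them within the Thy1-low order. The log2 fold changes (ADM minus DMEM) were 3.33 within the Thy1-high and −2.61 within the Thy1-low libraries for *Mup20*, whose counts are uncertain. They were 0.72 and −2.35 for *Itgbl1*, 0.12 and −4.25 for *Egfl6* and 0.74 and −2.46 for *Ifitm1*. The Thy1-high change of *Egfl6* did not pass edgeR's quasi-likelihood test (adjusted p = 0.605). The difference between the orders was not tested.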

How the results depend on the processing

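Of the counts of genes higher and lower in the Thy1-high ADM libraries (2367 and 2454), library totals gave 6121 and 1060 and moved the median of all genes to 1.23, and a fold limit of 4 gave 845 and 1218. DESeq2, no filter and a fold limit of 1.5 moved neither by over 1.5 times, and leaving out a library gave 2385 to 2562 and 2518 to 2633. The replicate block gave 2380 and 2465, and the numbers do not pair these libraries. Most named log2 fold changes moved by over the replicate spread with library totals. Of those counted as higher or lower *Cav1* (0.17) and *Ctnnb1* (0.13), and also *Lrig1*, changed sign, and several under the limits, such as *Cpt1a*, *Lef1*, *Sox9* and *Des*, did so too. Without the filter the medians of 4 marker lists, relative to all genes, changed sign, to −0.27 for skeletal muscle, 1.98 for endothelium, −0.15 for immune cells and 1.70 for epidermis, where more genes were tested. ADM against DMEM over all 12 libraries gave 2.75% higher and 2.94% lower genes of 12028 by edgeR, 14.1% and 7.44% by DESeq2, 0.468% higher without the filter, 0.333% higher with library totals and 0.116% and 0.382% with the replicate block. Leaving out a replicate number gave 0 to 0.0166% higher and 0 to 0.124% lower. The 0 counts came without replicate 2 (unadjusted p under 0.05 for 8.95% and 6.8% of genes, DESeq2 2.79% and 1.98%) and without replicate 3 (8.73% and 6.27%, DESeq2 2.37% and 1.81%), so nothing is drawn from this comparison. Within the Thy1-high libraries leaving out a replicate number gave 1.29% to 3.86% higher and 1.12% to 4.22% lower, and the block 4.67% and 4.81%. Within the Thy1-low libraries library totals gave 9.05% and 65.9%, the block 24.8% and 28.8%, and leaving out a replicate number 20.5% to 22.8% and 22.8% to 24.8%. The cause of these changes was not tested. The shallowest library, Thy1-high replicate 3, sets the depth limit for genes near 0.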
